A study of Homo sapiens with 12 samples.

Results

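The genes of serine synthesis and of the folate one-carbon cycle were followed in HEK293T cells and in R1 cells. Members were chosen by symbol, and the 9 genes (PHGDH, PSAT1, PSPH, SHMT1, SHMT2, MTHFD1, MTHFD1L, MTHFD2 and ALDH1L2) took 10 of the 23500 rows of the count table. SHMT1 has a second row, ENSG00000284320, which is not in the gene annotation used and holds 210 counts over all libraries; it was not used. All 9 genes were among the 17162 tested, those with a summed count of at least 10. HEK293T is a widely used line of human embryonic kidney origin whose cells make the SV40 large T antigen. R1 is a clone derived from HEK293T that, unlike its parent, divides in medium with homocysteine in place of methionine, so what is measured in R1 is the state of 1 clone. Each line was kept for 12 h in medium with methionine (+Met) or in medium with homocysteine in its place (−Met+Hcy), with 3 libraries in each of the 4 groups. All groups received dialyzed serum, glutamine, cysteine and vitamin B12. The labels do not say whether the 3 libraries of a group came from separate cultures, so p-values measure the spread between libraries, which may be technical. The comparisons asked how these genes answered the change of medium in each line and how R1 differed from HEK293T in each medium.

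PHGDH, PSAT1 and PSPH act in sequence to turn the glycolytic intermediate 3-phosphoglycerate into serine. SHMT2 in mitochondria and SHMT1 in the cytosol split serine into glycine and a one-carbon unit that is handed to folate; MTHFD2 and MTHFD1L oxidize that unit in mitochondria and release it as formate, and MTHFD1 takes up formate in the cytosol for purine, thymidylate and methyl group synthesis. Methionine synthase uses a methyl group carried by folate to turn homocysteine into methionine, which is the step that joins this cycle to the medium used here. In many cell types, genes of serine synthesis and of the mitochondrial arm are known targets of ATF4, the transcription factor of the amino acid response.

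Promoter sequence is shown for the members on which the comparisons turn: PSAT1, the member called between the media, MTHFD2, whose levels over the libraries were closest to those of PSAT1 among the members, and MTHFD1L, the member called between R1 and HEK293T in both media. Windows from RefSeq (GRCh38.p14; 250 bases before to 50 after each annotated start) were matched by symbol for 6 of the 9 genes: PHGDH, PSAT1, SHMT1, MTHFD1, MTHFD1L and MTHFD2. PSPH, SHMT2 and ALDH1L2 were not matched. The 250 bases before the PSAT1 start (chr9:78296875-78297124, plus strand) and 240 of the 250 bases before the MTHFD2 start (chr2:74198365-74198604, plus strand, without the 10 bases next to the start) are given with matches to CCAAT in capitals. The MTHFD2 start of this window, 74198615, is that of the canonical transcript and lies inside the gene as annotated, which begins further upstream. For MTHFD1L, 24 bases (chr6:150866349-150866372, plus strand) are given with a match to TGATGNAA, the C/EBP-ATF element, in capitals.
PSAT1: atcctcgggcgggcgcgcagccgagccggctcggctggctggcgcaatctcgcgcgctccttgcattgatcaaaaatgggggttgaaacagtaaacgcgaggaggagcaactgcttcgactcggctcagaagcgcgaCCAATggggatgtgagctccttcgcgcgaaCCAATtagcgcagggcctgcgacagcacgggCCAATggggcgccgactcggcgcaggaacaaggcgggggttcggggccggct
MTHFD2: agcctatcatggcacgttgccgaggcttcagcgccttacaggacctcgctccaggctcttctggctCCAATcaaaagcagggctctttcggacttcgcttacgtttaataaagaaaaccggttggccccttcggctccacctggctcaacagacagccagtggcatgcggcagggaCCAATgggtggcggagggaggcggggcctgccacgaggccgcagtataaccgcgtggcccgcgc
MTHFD1L: gccggctcTGATGCAAtcgcgccg
PSAT1 had 3 CCAAT matches, MTHFD2, MTHFD1 and SHMT1 had 2 each, and PHGDH and MTHFD1L had 1 each, so all 6 matched members held at least 1. Over both strands of all 35116 RefSeq windows, 34.6% held at least 1 CCAAT match, 10.8% at least 2 and 3.26% at least 3. TGATGNAA was found in MTHFD1L among the 6 members and in 3.62% of all windows, and the E-box CACGTG in MTHFD1L and MTHFD1 and in 7.26% of all windows. MTHFD1L has overlapping windows of several starts, and its TGATGNAA site was at positions -129, -90 and 25 from them. Members are counted here by gene and the shares by window. The core of the antioxidant element, TGACNNNGC, was found in MTHFD2 and in 13.35% of all windows. The TGATGNAA match lies in an exon of 1 of the 5 annotated MTHFD1L transcripts that span it and in an intron of the canonical one. These matches describe letters in a window and say nothing of whether a factor was bound.

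Total counts per library ran from 12664158 to 18771349. The level of a gene is given as CPM, its count divided by the total count of the library and multiplied by 1000000. The 50 most abundant genes took 18.0 to 19.2% of the counts in HEK293T +Met libraries and 13.1 to 15.1% in HEK293T −Met+Hcy libraries, and the scaling factors used in the test (TMM, which sets the bulk of genes equal) were 0.828 to 0.882 and 0.993 to 1.09. Scaled by library totals alone, the median log2 fold change of all genes between the media in HEK293T was 0.33, that of R1 against HEK293T in +Met was 0.37, and that of the difference between the responses was -0.38. In the other 2 comparisons it was -0.05 (between the media in R1) and 0.01 (R1 against HEK293T in −Met+Hcy). The log2 fold changes given below are relative to that shift, so CPM differences run above them in the first pair of comparisons and below them in the difference between the responses. Of 7 markers listed for embryonic kidney lines, all were above 0 in every library (VIM most abundant, 496 to 1062 CPM summed over the list). VIM made up most of these sums. PAX2 was the lowest of the list, at means of 0.46 and 0.80 CPM in HEK293T +Met and −Met+Hcy. The 8 markers of MDA-MB-468, the other parental line of the study, summed to 4.51 to 21.6 CPM, EGFR being the most abundant and 4 to 6 of the 8 being at 0, and 6 markers of blood cells and fibroblasts summed to 9.12 to 41.0 CPM, COL1A1 being the most abundant.

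One library stood apart. R1 −Met+Hcy replicate 3 correlated with the other libraries of its group at r = 0.776 and 0.793 in log2 CPM, against 0.942 to 0.991 for all other pairs within a group, and its deviation from the group followed the GC content of the transcripts (Spearman's rho across 11041 genes -0.74, a description since genes are not replicates). PHGDH and SHMT2, with 58.1% and 56.1% GC, were 1.30 and 1.21 log2 units lower in replicate 3 than in the other libraries of the group, where genes of like GC content had medians of -1.07 and -0.83. SHMT1 was 1.20 lower against a median of -0.37, PSAT1 0.53 lower against a median of 0.52, ALDH1L2 0.09 lower against a median of 0.64, MTHFD1 0.47 lower against a median of 0.01, and PSPH was 0.86 higher against a median of 0.03. MTHFD2 was 0.17 higher against a median of 0.68, and MTHFD1L 0.08 lower against a median of -0.27. Results that rest on this library are given with and without it.

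**Figure D1:**
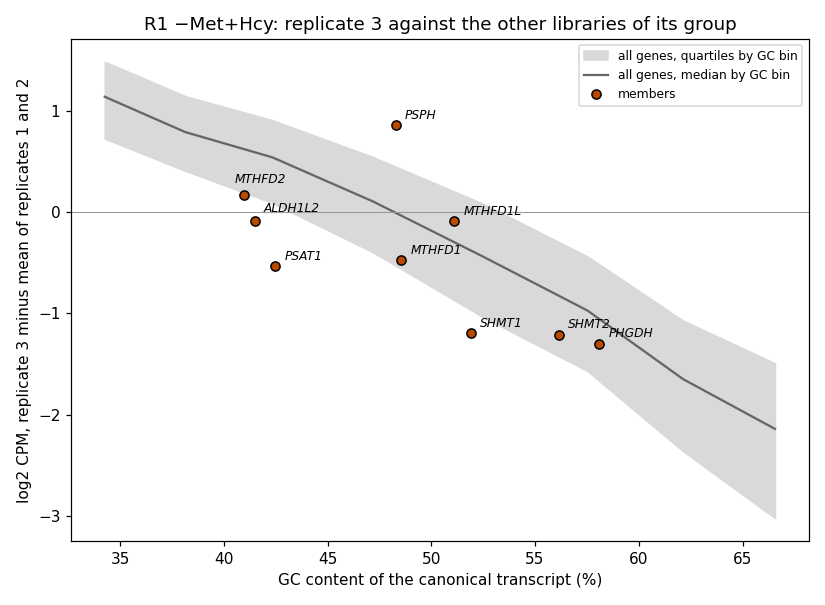
Difference in log2 CPM of replicate 3 from the mean of replicates 1 and 2 in R1 −Met+Hcy (vertical axis) against GC content of the canonical transcript in percent (horizontal axis); the line and band are the median and quartiles of all genes in bins of GC content, and the points are the 9 members. PHGDH and SHMT2 are the lowest points, at -1.30 and -1.21 and high GC content, and PSPH is the highest, at 0.86.

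To compare levels between genes, CPM was divided by the length of the canonical transcript in kb. In HEK293T +Met the order of mean levels in CPM per kb was PHGDH (199 ± 23.0, SD, n = 3), PSAT1 (135 ± 11.8), MTHFD1 (95.6 ± 8.62), SHMT2 (94.5 ± 8.09), MTHFD2 (50.5 ± 4.97), MTHFD1L (43.7 ± 3.32), PSPH (17.0 ± 2.83), SHMT1 (12.2 ± 1.27) and ALDH1L2 (2.57 ± 0.112). MTHFD1 and SHMT2 did not differ beyond their spread, and the libraries of MTHFD2 (45.1 to 54.7) overlapped those of MTHFD1L (40.0 to 46.3). In HEK293T −Met+Hcy the order at the top was PSAT1 (392 ± 54.0 CPM per kb) and PHGDH (378 ± 13.0), whose libraries overlapped, followed by SHMT2 (205 ± 7.73) and MTHFD2 (104 ± 7.35). In R1 +Met PHGDH was highest (312 ± 27.6) and MTHFD1L was at 21.7 ± 3.92. Over all groups PHGDH stood at the 98.6th percentile of genes tested in CPM per kb and ALDH1L2 at the 46.3rd.

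In HEK293T cells PSAT1 was the member called between the media, and it was higher in −Met+Hcy. All 3 genes of serine synthesis had higher CPM in every −Met+Hcy library than in any +Met library, as did 38.6% of all genes tested, and PHGDH and PSPH did not pass the test. In these bulk libraries, less RNA per cell and fewer cells expressing a gene cannot be told apart. PSAT1 (chromosome 9, 78297125 to 78330093), the aminotransferase of the pathway, measured 276, 292 and 327 CPM in the 3 +Met libraries and 739, 884 and 975 CPM in the 3 −Met+Hcy libraries. Every −Met+Hcy library was above every +Met library. PSAT1 rose by a log2 fold change of 1.25 (SE 0.25, 95% interval 0.71 to 1.79, edgeR's quasi-likelihood F-test, Benjamini-Hochberg adjusted p over all 17162 genes tested = 0.0125; range of adjusted p over the alternatives 1.70e-05 to 0.0702). A call required an adjusted p under 0.05 and an absolute log2 fold change over 1, which 1 of the 9 members met upward and 0 downward, where 3.04% of all genes tested were called higher and 1.59% lower. An unadjusted p under 0.05 was found for 6 of the 9 upward and 1 downward, beside 12.9% and 9.49% of all genes, and DESeq2 called 1 higher and 0 lower, beside 4.36% and 2.37% of all genes. The PSAT1 call was lost without HEK293T +Met replicate 1, +Met replicate 2, −Met+Hcy replicate 2 and −Met+Hcy replicate 3 in turn, with log2 fold changes of 1.21, 1.21, 1.24 and 1.14 and adjusted p of 0.0702, 0.0588, 0.0566 and 0.0579 by the same edgeR test.

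PHGDH (chromosome 1, 119648411 to 119744218), the dehydrogenase that opens the pathway, measured 418, 360.5 and 334 CPM in HEK293T +Met and 707, 729.9 and 681 CPM in −Met+Hcy. The groups did not overlap, but the log2 fold change of 0.63 (SE 0.28) did not pass edgeR's quasi-likelihood test (Benjamini-Hochberg adjusted p = 0.213). With R1 −Met+Hcy replicate 3 left out of the fit, which lowered the common dispersion from 0.109 to 0.0349, the same log2 fold change had an SE of 0.14 and an adjusted p of 0.00489 by the same edgeR test, still under the fold required for a call. PSPH (chromosome 7, 56011051 to 56051604), the phosphatase that completes the synthesis, measured 30.2, 30.5 and 40.0 CPM in +Met and 59.8, 75.6 and 81.0 CPM in −Met+Hcy. Its groups did not overlap either, and its log2 fold change of 0.81 (SE 0.34) had an edgeR Benjamini-Hochberg adjusted p of 0.180, or 0.0466 without that library.

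**Figure D2:**
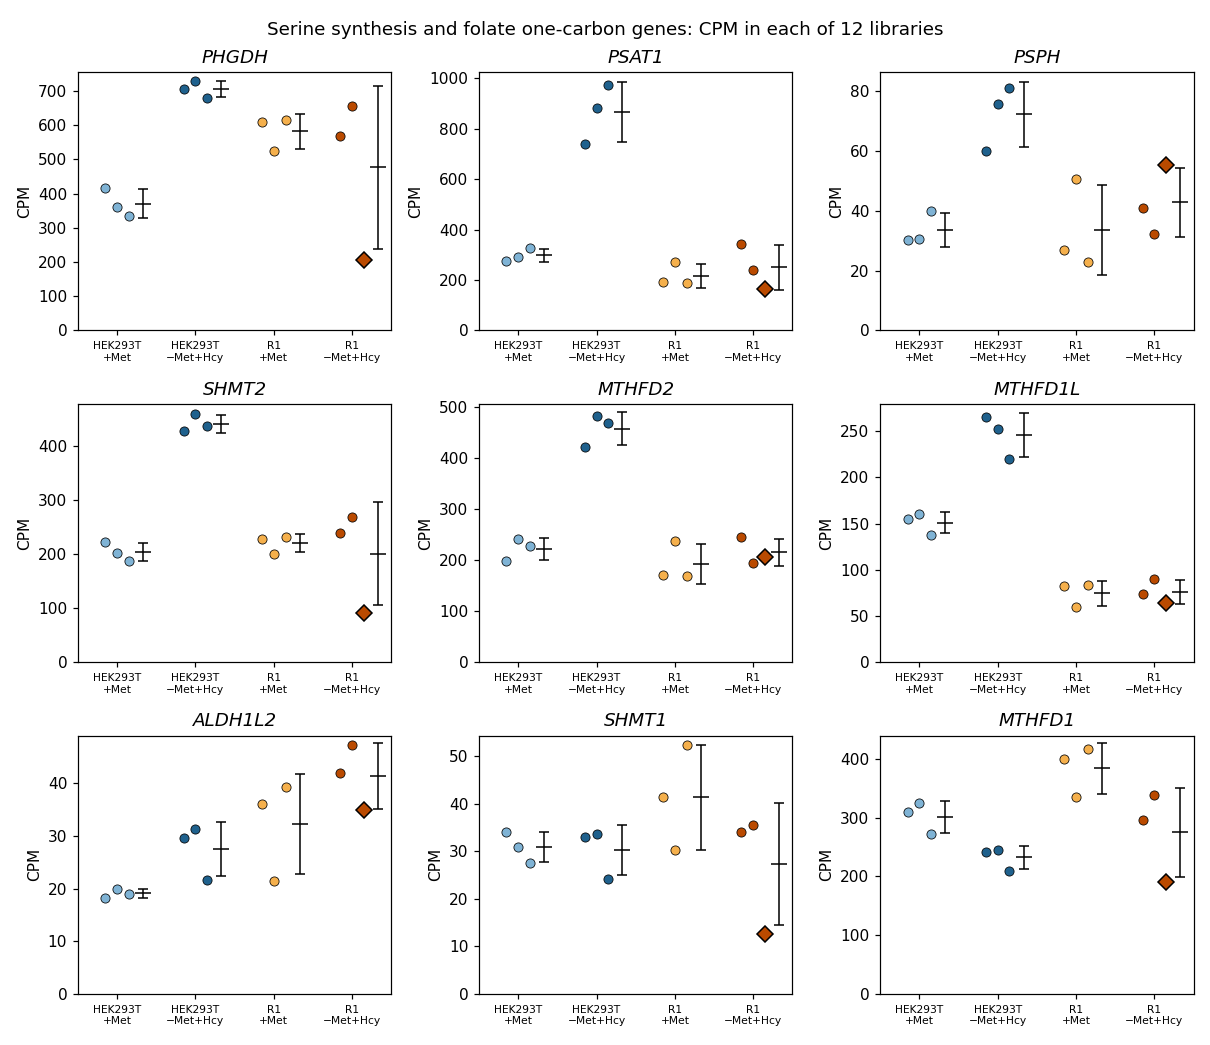
CPM (vertical axes, from 0) of the 9 members in each of the 12 libraries by group; points are libraries, the diamond is R1 −Met+Hcy replicate 3, and bars are the mean and SD of 3 libraries. PSAT1 runs from 739 to 975 CPM in HEK293T −Met+Hcy and from 166 to 344 CPM in the other groups, and MTHFD1L is lower in both R1 groups than in both HEK293T groups.

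In the mitochondrial arm, SHMT2 (chromosome 12, 57229573 to 57234935) measured 222, 202 and 187 CPM in HEK293T +Met and 427, 459.8 and 436 CPM in −Met+Hcy. MTHFD2 (chromosome 2, 74186172 to 74217565), the dehydrogenase and cyclohydrolase of the arm, measured 198, 241 and 228 CPM in +Met and 421, 483 and 468 CPM in −Met+Hcy. The groups of both genes were well separated, with CPM in −Met+Hcy about as tightly grouped as in +Met. The log2 fold change of SHMT2 was 0.82 (SE 0.27, edgeR's quasi-likelihood F-test, Benjamini-Hochberg adjusted p = 0.0902) and that of MTHFD2 was 0.75 (SE 0.20, adjusted p = 0.0411 by the same edgeR test), so neither was called. With R1 −Met+Hcy replicate 3 left out of the fit, these log2 fold changes had SEs of 0.13 and 0.17 and edgeR adjusted p of 0.000711 and 0.00767, still under the fold required for a call. MTHFD1L (chromosome 6, 150865679 to 151101887), the formate-releasing synthetase, had 155, 159.9 and 138 CPM in +Met and 265, 253 and 219 CPM in −Met+Hcy, without overlap, and a log2 fold change of 0.41 (SE 0.17, edgeR adjusted p = 0.179). ALDH1L2 (chromosome 12, 105019784 to 105107643), which oxidizes the formyl group to carbon dioxide in mitochondria, ran from 18.3 to 19.9 CPM in +Met and from 21.6 to 31.3 CPM in −Met+Hcy. Its log2 fold change was 0.23 (SE 0.22, edgeR adjusted p = 0.593), and with TMM scaling its groups overlapped.

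The cytosolic enzymes were not higher in −Met+Hcy. MTHFD1 (chromosome 14, 64388031 to 64463457), the cytosolic enzyme with 3 activities that takes up formate, measured 309, 324 and 272 CPM in HEK293T +Met and 242, 246 and 209 CPM in −Met+Hcy. Every −Met+Hcy library was below every +Met library, and the log2 fold change was -0.67 (SE 0.18, edgeR's quasi-likelihood F-test, Benjamini-Hochberg adjusted p = 0.0430; range over the alternatives 6.32e-05 to 0.275), past the adjusted p but not the fold required for a call. Scaled by library totals it was -0.38, with an edgeR adjusted p of 0.275. SHMT1 (chromosome 17, 18327860 to 18363563) ran from 27.6 to 34.0 CPM in +Met and from 24.2 to 33.5 CPM in −Met+Hcy, groups that overlapped, with a log2 fold change of -0.33 (SE 0.30, edgeR adjusted p = 0.565). By adjusted p alone, 2 members were higher (PSAT1 and MTHFD2) and 1 lower (MTHFD1), where 4.25% and 2.78% of all genes were. Without R1 −Met+Hcy replicate 3 in the fit, 5 were higher (with PHGDH, PSPH and SHMT2) and 1 lower, where 15.2% and 12.5% of all genes were. On CPM, 7 members had non-overlapping groups upward and 1 downward, where 38.6% and 9.8% of all genes did; on TMM-scaled CPM these were 6 and 2 members (SHMT1 joining MTHFD1), against 24.8% and 20.6%. The median log2 fold change of the 9 members was 0.63, beside 0.03 over all genes tested.

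Ratios between members within a library do not depend on how libraries are scaled. SHMT2 per SHMT1 transcript, in CPM per kb, was 7.75 ± 0.180 (SD, n = 3) in HEK293T +Met and 17.4 ± 3.22 in −Met+Hcy, and 6.47 ± 1.27 and 8.57 ± 0.312 in R1. MTHFD2 per MTHFD1 was 0.532 ± 0.0709 and 1.42 ± 0.179 in HEK293T, and 0.369 ± 0.123 and 0.594 ± 0.179 in R1. In HEK293T −Met+Hcy both ratios were above those of every library of the other groups. MTHFD1L per MTHFD1 was 0.458 ± 0.00717 in HEK293T +Met, 0.966 ± 0.0305 in HEK293T −Met+Hcy, 0.177 ± 0.0135 in R1 +Met and 0.260 ± 0.0424 in R1 −Met+Hcy. All R1 libraries were below all HEK293T libraries in this ratio. PSAT1 per PHGDH was 0.690 ± 0.135 and 1.04 ± 0.163 in HEK293T and 0.321 ± 0.103 and 0.500 ± 0.184 in R1. In R1 −Met+Hcy, replicate 3 had the highest PSAT1 per PHGDH, 0.679 beside 0.511 and 0.311. It was also highest in MTHFD2 per MTHFD1 (0.773 beside 0.595 and 0.414) and in MTHFD1L per MTHFD1 (0.308 beside 0.229 and 0.243). The R1 −Met+Hcy means of these ratios thus rest in part on that library. In SHMT2 per SHMT1 it lay between the others (8.54 beside 8.27 and 8.90). Within R1 the media overlapped in PSAT1 per PHGDH and in MTHFD2 per MTHFD1, and did not overlap in SHMT2 per SHMT1 (at most 7.75 in +Met and at least 8.27 in −Met+Hcy) and in MTHFD1L per MTHFD1 (at most 0.187 and at least 0.229). No test was run on these ratios. The exons of MTHFD2, MTHFD1, ALDH1L2, SHMT1 and SHMT2 overlap exons of genes on the other strand, and whether the libraries keep strand is not given in the sources used here.

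**Figure D3:**
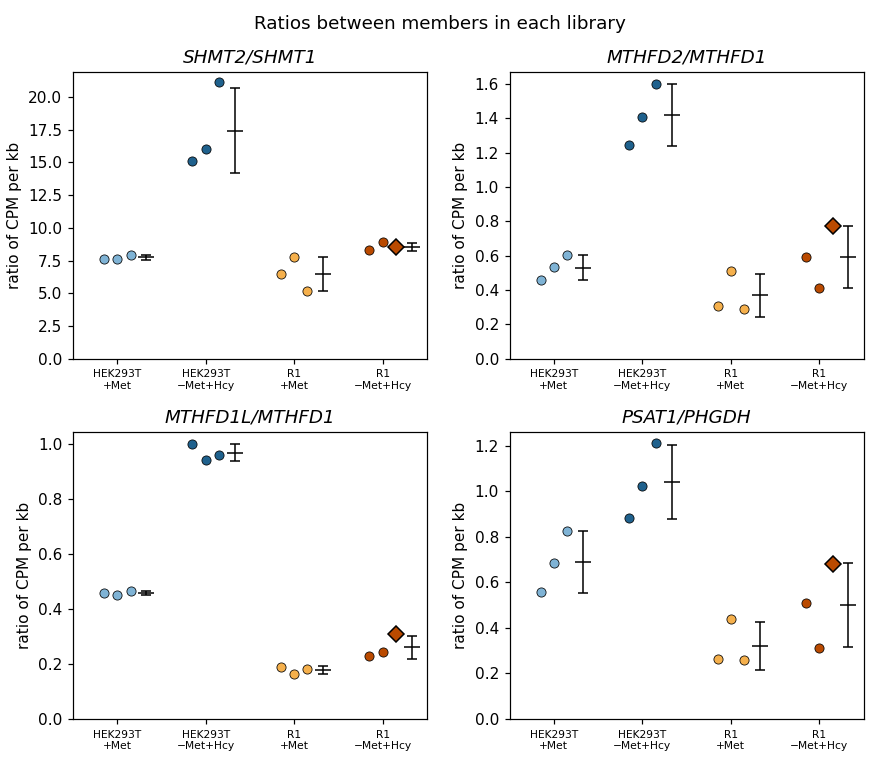
Ratio of CPM per kb between pairs of members (vertical axes, from 0) in each of the 12 libraries by group; points are libraries, the diamond is R1 −Met+Hcy replicate 3, and bars are the mean and SD of 3 libraries. SHMT2 per SHMT1 reaches 15.1 to 21.1 in HEK293T −Met+Hcy and 8.90 at most elsewhere.

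In R1 cells, no member was called between the media by edgeR in either direction, where 0.00583% of all genes were called higher and 0% lower. Of the 9 members 0 had an unadjusted p under 0.05 upward and 1 downward, beside 5.68% and 2.11% of all genes, and DESeq2 called 0, beside 0.146% of all genes higher and 0.0175% lower. PSAT1 measured 190.4, 272 and 187 CPM in R1 +Met and 344, 241 and 166 CPM in −Met+Hcy, and the media overlapped. Its log2 fold change was 0.22 (SE 0.25, edgeR's quasi-likelihood F-test, Benjamini-Hochberg adjusted p = 0.751), and 0.38 (SE 0.23) without replicate 3. PHGDH measured 609, 524 and 616 CPM in +Met and 569, 656 and 207 CPM in −Met+Hcy, the last being replicate 3. With all libraries the PHGDH log2 fold change was -0.29 (SE 0.28), and without replicate 3 it was 0.03 (SE 0.15), so its sign rests on that library. SHMT2 measured 229, 200.5 and 232 CPM in +Met and 239.9, 269 and 91.6 CPM in −Met+Hcy, and its log2 fold change likewise turned from -0.14 (SE 0.27) to 0.16 (SE 0.14) without replicate 3.

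MTHFD2 in R1 cells measured 170.5, 238 and 169 CPM in +Met and 246, 195 and 205 CPM in −Met+Hcy (log2 fold change 0.20, SE 0.20, and 0.10 to 0.41 with 1 library left out in turn). MTHFD1L measured 81.9, 59.3 and 83.4 CPM in +Met and 74.2, 89.8 and 64.2 CPM in −Met+Hcy (0.06, SE 0.17). Neither gene separated the media. MTHFD1 measured 399.7, 334 and 417 CPM in +Met and 296, 338 and 190.3 CPM in −Met+Hcy, groups that overlapped between 334 and 338 CPM but did not overlap on TMM-scaled CPM (1 member down and ALDH1L2 up, beside 5.72% and 4.89% of all genes). Its log2 fold change of -0.46 (SE 0.18) had the lowest unadjusted edgeR p-value of the members, 0.0243, with a Benjamini-Hochberg adjusted p of 0.622. SHMT1, PSPH and ALDH1L2 had log2 fold changes of -0.59 (SE 0.30), 0.41 (SE 0.34) and 0.40 (SE 0.22), and without replicate 3 of -0.29 (SE 0.20), 0.07 (SE 0.31) and 0.43 (SE 0.21). Leaving out 1 library in turn gave -0.79 to -0.29 for SHMT1, 0.07 to 0.88 for PSPH and 0.19 to 0.55 for ALDH1L2. On CPM, 0 of the 9 members had non-overlapping media in R1, where 5.22% of all genes did upward and 4.87% downward.

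**Figure D4:**
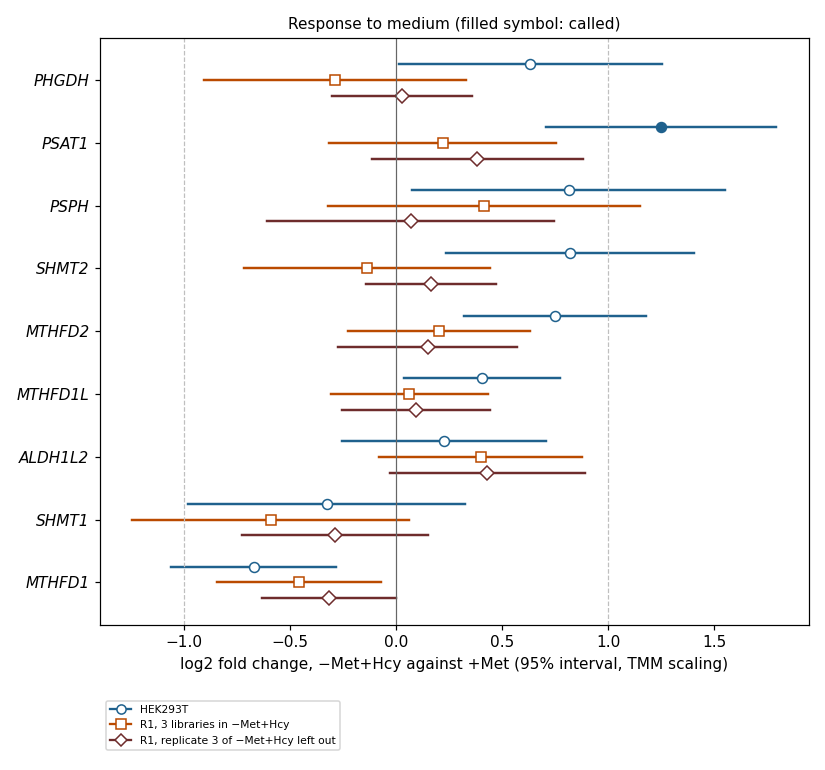
Log2 fold change of −Met+Hcy against +Met (horizontal axis, TMM scaling) for the 9 members in HEK293T and in R1, with and without R1 −Met+Hcy replicate 3; lines are 95% intervals, filled symbols are called, and dashed lines mark the fold required for a call. PSAT1 in HEK293T, at 1.25, is the filled symbol, and the intervals of all members in R1 but MTHFD1 include 0.

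Whether R1 answered the medium otherwise than HEK293T was tested as an interaction, and edgeR called 0 members in either direction, where 0.0583% of all genes were called lower and 0% higher. For PSAT1 the log2 response in R1 minus that in HEK293T was -1.03, which did not pass the test (SE 0.35, 95% interval -1.79 to -0.27, unadjusted p = 0.0119, edgeR's quasi-likelihood F-test, Benjamini-Hochberg adjusted p = 0.377). The values were -0.96 (SE 0.38) for SHMT2 and -0.92 (SE 0.40) for PHGDH, with edgeR adjusted p of 0.448 and 0.505. DESeq2 called 0 as well, beside 0.39% of all genes higher and 0.717% lower. These 3 were the members with an unadjusted p under 0.05 by edgeR, all downward, beside 5.05% of all genes downward and 4.62% upward. Without replicate 3 the values were -0.87 for PSAT1, -0.65 for SHMT2 and -0.60 for PHGDH, with edgeR adjusted p of 0.178, 0.104 and 0.156. With the trend of each library on GC content and transcript length removed and replicate 3 left out, the differences were -0.69 for PHGDH, -0.83 for PSAT1 and -0.69 for SHMT2 with edgeR adjusted p of 0.0229, 0.0208 and 0.0146, all under the fold required for a call, where 4.65% of all genes had an adjusted p under 0.05 downward. With all libraries, the sizes of the other 6 differences ran up to -0.55 (SE 0.28, MTHFD2), with intervals that include 0. Without replicate 3, MTHFD2 was at -0.60 (95% interval -1.17 to -0.03, edgeR adjusted p = 0.275) and PSPH went from -0.40 to -0.74 (95% interval -1.65 to 0.17).

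In +Met, MTHFD1L was the member that set R1 apart from HEK293T. It measured 59.3 to 83.4 CPM in R1 and 138 to 159.9 CPM in HEK293T, and it was lower in R1 by a log2 fold change of -1.37 (SE 0.17, 95% interval -1.74 to -0.99, edgeR's quasi-likelihood F-test, Benjamini-Hochberg adjusted p = 0.000733; 1.53e-15 to 0.00569 over the alternatives). Here 1 of the 9 members was called lower and 0 higher, beside 2.95% and 4.71% of all genes; DESeq2 called 1 lower and 0 higher, beside 4.16% and 6.42%. By edgeR, 0 members had an unadjusted p under 0.05 upward and 3 downward, beside 13.6% and 12.5% of all genes. PSAT1 measured 187 to 272 CPM in R1 and 276 to 327 CPM in HEK293T, without overlap, and its log2 fold change of -0.81 (SE 0.25, edgeR adjusted p = 0.0584) was not called. Without R1 +Met replicate 2, the R1 library with the highest PSAT1 in that medium, PSAT1 was called at -1.03 (edgeR adjusted p = 0.0238). MTHFD2 had a log2 fold change of -0.55 (SE 0.20, edgeR adjusted p = 0.0975) and SHMT2 of -0.24 (SE 0.27, edgeR adjusted p = 0.614). With R1 −Met+Hcy replicate 3 left out of the fit, the edgeR adjusted p of PSAT1 was 0.0109 and that of MTHFD2 0.0289, both under the fold required.

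PHGDH, the most abundant member per length, was at 583 ± 51.5 CPM (SD, n = 3) in R1 +Met and at 371 ± 42.8 CPM in HEK293T +Met. Its log2 fold change with TMM scaling was 0.30 (SE 0.28, edgeR adjusted p = 0.556), and on TMM-scaled CPM the lines overlapped. MTHFD1 was at 384 ± 43.7 and 302 ± 27.2 CPM in the 2 lines, and its log2 fold change was -0.01 (SE 0.18) with TMM scaling and 0.35 when scaled by library totals, so its direction rests on the scaling. On CPM, 3 members had non-overlapping lines upward (PHGDH, MTHFD1 and ALDH1L2) and 2 downward (MTHFD1L and PSAT1), beside 38.1% and 9.15% of all genes. On TMM-scaled CPM these numbers were 0 and 4 (MTHFD2 and SHMT2 joining), beside 22.2% and 20.7%.

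In −Met+Hcy, 4 of the 9 members were called lower in R1 than in HEK293T and 0 were called higher, where 4.66% and 5.29% of all genes tested were. PSAT1, at 166 to 344 CPM in R1 and 739 to 975 CPM in HEK293T, was lower by a log2 fold change of -1.84 (SE 0.25, edgeR's quasi-likelihood F-test, Benjamini-Hochberg adjusted p = 0.000925). MTHFD1L, at 64.2 to 89.8 CPM and 219 to 265 CPM, was lower by -1.71 (SE 0.17, edgeR adjusted p = 0.000164). No R1 library reached the lowest HEK293T library for either gene. MTHFD2, at 195 to 246 CPM in R1 and 421 to 483 CPM in HEK293T, was lower by -1.10 (SE 0.20, edgeR adjusted p = 0.00367), and without R1 −Met+Hcy replicate 2 it came to -0.998, just inside the fold required for a call. SHMT2, at 91.6 to 269 CPM in R1 and 427 to 459.8 CPM in HEK293T, was lower by -1.20 (SE 0.27, edgeR adjusted p = 0.0121). Without R1 replicate 3 the SHMT2 value was -0.90 (SE 0.15, edgeR adjusted p = 0.000695), which was not called, and the log2 fold change of PSPH went from -0.74 (SE 0.34) to -1.09 (SE 0.32, edgeR adjusted p = 0.0222), which was. The number called lower was 4 with and without that library (6.44% of all genes without it), and 3 genes were in both sets.

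The HEK293T −Met+Hcy libraries enter both this comparison and that between the media in HEK293T, so the values of the members in these comparisons are not independent. PHGDH, at 207 to 656 CPM in R1 and 681 to 729.9 CPM in HEK293T, had a log2 fold change of -0.63 (SE 0.28, edgeR adjusted p = 0.165), and -0.31 (SE 0.15) without replicate 3. MTHFD1 and ALDH1L2 had positive values of 0.21 (SE 0.18) and 0.57 (SE 0.22), neither called. Without replicate 3 they were 0.35 (SE 0.14, edgeR adjusted p = 0.0840) and 0.60 (SE 0.21, edgeR adjusted p = 0.0492), both under the fold required for a call. With all libraries, an unadjusted p under 0.05 by edgeR was found for 1 member upward and 6 downward, beside 15% and 14.5% of all genes. DESeq2 called 4 lower and 0 higher, beside 6.09% and 6.68% of all genes. SHMT1 had -0.20 (SE 0.30), which became 0.10 without replicate 3. On CPM, 6 members had non-overlapping lines downward and 1 upward (ALDH1L2), beside 17.8% and 13.9% of all genes, and on TMM-scaled CPM 5 and 1, beside 18.9% and 13.6%. The median log2 fold change of the members was -0.74, and -0.01 over all genes.

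**Figure D5:**
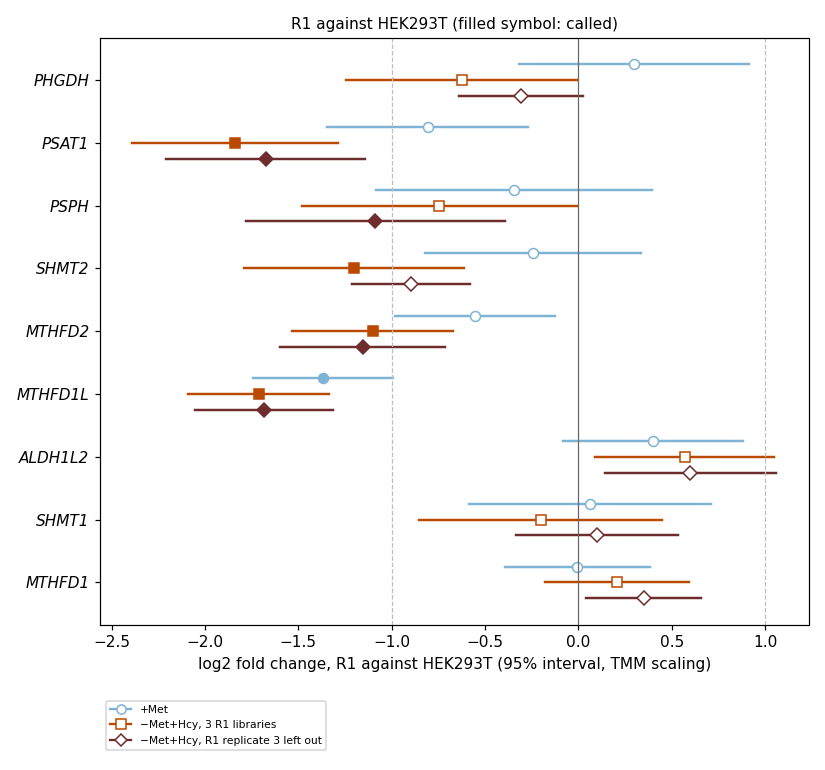
Log2 fold change of R1 against HEK293T (horizontal axis, TMM scaling) for the 9 members in +Met and in −Met+Hcy, the latter with and without R1 −Met+Hcy replicate 3; lines are 95% intervals, filled symbols are called, and dashed lines mark the fold required for a call. MTHFD1L is called in both media, at -1.37 and -1.71.

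Of the other genes of the pathway, 37 were tested: further folate enzymes of both compartments, the glycine cleavage system, folate uptake, users of one-carbon units, serine and glycine carriers, and other enzymes of serine and glycine. Between the media in HEK293T, edgeR with all libraries called 2 of the 37 higher, both carriers, and 0 lower, beside 3.04% and 1.59% of all genes. DESeq2, and edgeR without R1 −Met+Hcy replicate 3, each called 3 higher, the third a cytosolic folate enzyme, where a larger share of all genes was also called higher. That enzyme was near the floor, at means of 0.02 CPM in HEK293T +Met and 0.59 CPM in HEK293T −Met+Hcy. With the trend on GC content and length removed, 4 were called higher, and the share of all genes called there is not given here. The median log2 fold change of the 37 was -0.02. Of these 37, 3 had an adjusted p under 0.05 upward and 2 downward, and without R1 −Met+Hcy replicate 3 these were 5 and 9, beside the 15.2% and 12.5% of all genes given above. SLC6A9, a glycine carrier of the cell membrane, was at 8.97 ± 0.477 CPM (SD, n = 3) in +Met and 43.9 ± 3.60 CPM in −Met+Hcy and rose by 1.99 (SE 0.21, edgeR's quasi-likelihood F-test, Benjamini-Hochberg adjusted p = 0.000537). SLC1A4, a carrier of serine and other neutral amino acids, was at 2.27 ± 0.290 and 8.80 ± 1.24 CPM and rose by 1.65 (SE 0.35, edgeR adjusted p = 0.0176). SLC38A2, a carrier of small neutral amino acids, had 0.82 (SE 0.22, edgeR adjusted p = 0.0436), under the fold required. Of the users of one-carbon units, ATIC, which adds the last formyl group of purine synthesis, had a log2 fold change of -0.88 (SE 0.16, edgeR adjusted p = 0.00867), under the fold required, and TYMS, the thymidylate synthase, of -0.47 (SE 0.16, edgeR adjusted p = 0.1005). In the glycine cleavage system 0 of 4 genes were called. GCSH, its lipoyl-carrying protein, was at 122 ± 11.7 and 80.8 ± 10.6 CPM in the 2 media, +Met first, without overlap, and had a log2 fold change of -0.89 (SE 0.40, edgeR adjusted p = 0.213), with an SE of 0.19 and an edgeR adjusted p of 0.00425 without R1 −Met+Hcy replicate 3. DLD, the dehydrogenase of the system, had 0.08 (SE 0.20) and GLDC, the decarboxylase, -0.04 (SE 0.18).

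In folate uptake and retention 0 of 6 genes were called between the media in HEK293T; GGH, which trims the glutamate tail of folates, had a log2 fold change of -0.61 (SE 0.38) and SLC19A1, the reduced folate carrier, of -0.51 (SE 0.51). Of the other cytosolic folate enzymes, MTHFS had -0.40 (SE 0.27). Of the other mitochondrial ones, MTHFD2L had 1.03 (SE 0.40, edgeR's quasi-likelihood F-test, Benjamini-Hochberg adjusted p = 0.149) and MTFMT, which formylates the initiator methionyl-tRNA, -0.28 (SE 0.19). SPTLC2, a subunit of the serine palmitoyltransferase that opens sphingolipid synthesis, had -0.81 (SE 0.22, edgeR adjusted p = 0.0437), and SRR, the serine racemase, -0.48 (SE 0.16). None of these genes was called.

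In R1 cells 0 of these 37 genes were called between the media by edgeR; without replicate 3 SLC6A9 was called higher, at 1.10, where 0.0176% of all genes were. R1 against HEK293T in +Met gave 4 called higher and 0 lower, beside 4.71% and 2.95% of all genes: GLDC (log2 fold change 1.12, SE 0.18), SDSL, a serine dehydratase-like enzyme (1.96, SE 0.47), SFXN3, of the sideroflexin family that holds the mitochondrial serine carriers (1.55, SE 0.37), and SLC1A4 (2.31, SE 0.36). GLDC was at 94.2 ± 12.8 CPM in R1 and 34.0 ± 3.49 CPM in HEK293T (edgeR's quasi-likelihood F-test, Benjamini-Hochberg adjusted p = 0.00263). With R1 −Met+Hcy replicate 3 left out of the fit, 6 of the 37 were called higher in +Met and 2 lower, beside 8.97% and 5.28% of all genes. In −Met+Hcy 3 were called lower in R1 and 0 higher, beside 4.66% and 5.29% of all genes. SLC1A5, the glutamine and neutral amino acid carrier, was at 124 ± 80.1 CPM in R1 and 533 ± 30.1 CPM in HEK293T (log2 fold change -2.18, SE 0.41, edgeR adjusted p = 0.00489). The R1 libraries measured 164, 176 and 31.9 CPM, the last being replicate 3, and without it the log2 fold change was -1.75 (SE 0.15). SLC6A9 was lower by -1.80 (SE 0.21) and MTHFD2L, the mitochondrial paralogue of MTHFD2, by -1.41 (SE 0.40, edgeR adjusted p = 0.0366). Without replicate 3, 4 were called higher and 4 lower, beside 8.63% and 6.44% of all genes.

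Among 8 regulators of these genes, ATF3, CEBPG and DDIT3, all stress-response factors of the bZIP family, were called higher in HEK293T −Met+Hcy, and 0 were called lower, beside 3.04% and 1.59% of all genes; without R1 −Met+Hcy replicate 3 in the fit, 5 were called higher, beside 6.76% of all genes. ATF3 was at 17.0 ± 1.05 CPM (SD, n = 3) in +Met and 114 ± 16.5 CPM in −Met+Hcy, and it rose by 2.45 on the log2 scale (SE 0.29, edgeR's quasi-likelihood F-test, Benjamini-Hochberg adjusted p = 0.000958). CEBPG rose by 2.00 (SE 0.18) and DDIT3 by 1.39 (SE 0.26). The transcript of ATF4 itself had a log2 fold change of 0.34 (SE 0.17, edgeR adjusted p = 0.265), at 943 ± 50.2 and 1466 ± 109.6 CPM. In R1 0 of the 8 were called between the media by edgeR or by DESeq2. The difference between the responses was called for 0 of the 8 by edgeR, for 2 lower by DESeq2 (ATF3 and CEBPG, beside 0.717% of all genes) and for 3 lower by edgeR without replicate 3 (with TRIB3, beside 1.08%). MYC, a transcription factor that is also known to act on genes of this pathway, was at 253 ± 14.0 and 583 ± 6.59 CPM in HEK293T and at 54.8 ± 2.36 and 63.4 ± 5.16 CPM in R1, +Met first. It was lower in R1 by -2.56 (SE 0.16) in +Met and by -3.22 (SE 0.17) in −Met+Hcy, with edgeR adjusted p of 6.84e-06 and 1.46e-06. In +Met 3 of the 8 were called lower in R1 (MYC, ATF3 and CEBPG), and in −Met+Hcy 4 (with CEBPB), beside 2.95% and 4.66% of all genes. Without R1 −Met+Hcy replicate 3 in the fit, 4 were called lower in each medium, where the shares of all genes called lower, given above for that fit, were also larger.

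Likeness of pattern was measured by Pearson's r of log2 CPM over the 12 libraries, a description without a test since the libraries fall into groups and share scaling, among 11641 genes with a mean log2 CPM over 2. Among members, PSAT1 and MTHFD2 were most alike (r = 0.97, and 0.99 without R1 −Met+Hcy replicate 3), and PSAT1 and SHMT2 had r = 0.85, and 0.91 without it. MTHFD1 and PSAT1 ran against each other (r = -0.54, and -0.83 without it). Over all genes, those nearest to PSAT1 were ATF3 (0.99), GRPEL2 (0.99) and UMPS (0.99), and those nearest to MTHFD1L were TRIM27 (0.99), MYC (0.98) and SLC16A1 (0.98). The nearest genes to MTHFD2 were ZNF14 (0.99), TTC4 (0.99) and ZNF461 (0.99), to PHGDH KMT5C (0.98), MRM2 (0.98) and TKFC (0.98), and to SHMT2 SNX18 (0.99) and the identical copies F8A3 and F8A2 (0.99 each). PSPH was nearest to RGS2 (0.98), ANKRD49 (0.98) and TMEM144 (0.98), MTHFD1 to ELAC2 (0.98), CYFIP1 (0.97) and ACTN1 (0.97), SHMT1 to SLC20A2 (0.96), SMTN (0.96) and INPP5A (0.95), and ALDH1L2 to ANKRD42 (0.93), R3HDM2 (0.92) and UBE2Q1 (0.91). For SHMT1 the leading value fell from 0.96 to 0.87 without replicate 3, so this likeness rests in part on that library.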

How the data were processed

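Libraries of HEK293T and R1 cells were sequenced by the authors. The authors ran kallisto 0.48.0 on GRCh38 and deposited estimated counts, which they had summed over transcripts per Ensembl gene and made whole. Rows were matched to members by symbol; coordinates, GC content and canonical lengths came from GENCODE release 44 and were found for 92.4% of genes tested. Genes with a summed count under 10 were left out. TMM-scaled counts entered 1 quasi-likelihood model of the 4 group means (edgeR 4.0.16, R 4.3.3, 8 residual degrees of freedom), with Benjamini-Hochberg adjustment across the 17162 genes. Standard errors are the absolute log2 fold change divided by the square root of F. Log2 CPM used a prior count of 2. DESeq2 1.42.0 was an alternative. The procedure was tested on simulated data whose spread was estimated without R1 −Met+Hcy replicate 3, so smaller than that of the main fit. There edgeR called 23 of 50 simulated 2-fold changes and 49 of 50 3-fold changes. Loess trends on GC content and length (span 0.3) were removed as an alternative.

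All 9 members are described; other pathway genes are named if called in a comparison or, per list, among the 2 largest changes between the media in HEK293T at a mean of at least 5 CPM in a group, with SLC38A2 and ATF4 added after their values were seen and 1 gene not reported here, and nearest genes are the 3 with the highest r. Members, lists and tests were chosen with earlier results of these data known. R1 is named in sample titles, which were followed, while the cell line field of those samples reads HEK293T. No batch is given. MDA-MB-468 and R8 libraries were not analysed here.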

Additional observations from a re-analysis of the deposited data

How the results depend on the processing

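The log2 fold changes of the members in the 5 comparisons kept their direction and their side of the threshold in 1032 of the values under alternatives, lost the call in 8, gained it in 5 and changed sign in 26, all of the last among values that were not called. Library totals, chosen as an alternative after the data were seen, gave 4 members called higher between the media in HEK293T in place of 1 (PSAT1, MTHFD2 at 1.04, PSPH at 1.10 and SHMT2 at 1.11), where this scaling called 7.06% of all genes higher and put 69.6% of them above 0. By adjusted p alone, 2 were higher and 1 lower in that comparison; the number higher was 5 without R1 −Met+Hcy replicate 3, 4 with the trend on GC content and length removed, 6 with both, 6 by edgeR on the libraries of the comparison, 5 with library totals, 1 with the replicate block and 0 to 2 without any other library, where 15.2%, 10.2%, 19.7%, 18.6%, 10.5%, 2.35% and 1.27 to 4.51% of all genes were higher. MTHFD1, the 1 lower, did not pass with library totals, with the replicate block or with no filter on low counts (edgeR adjusted p = 0.275, 0.0880 and 0.0562). It also did not pass without each HEK293T library, R1 +Met replicates 1 and 3 and R1 −Met+Hcy replicate 1 in turn, and it passed otherwise. Leaving out 1 library gave 0 to 1 called higher in HEK293T, 1 to 2 called lower in R1 against HEK293T in +Met and 3 to 4 in −Met+Hcy. The shares of all genes called in these fits are not all given here, so these counts are not set against them. The replicate numbers do not pair the libraries (correlations of same-numbered deviations -0.72 to 0.60), and with the replicate number as a block the numbers called were the same: 1 higher in HEK293T, 1 lower in R1 in +Met and 4 lower in R1 in −Met+Hcy, beside 2.01%, 2.05% and 3.85% of all genes, and also with the trend on GC content and length removed, beside 4.33%, 2.76% and 5.44%. With that trend removed and R1 −Met+Hcy replicate 3 left out, without the block, 3 were called lower in R1 in −Met+Hcy, beside 6.06%.

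Among the values that changed sign, leaving out 1 library gave ranges of log2 fold change between the media in R1 of -0.55 to 0.029 for PHGDH, -0.37 to 0.16 for SHMT2, -0.029 to 0.45 for PSAT1 and -0.063 to 0.13 for MTHFD1L. The difference between the responses ranged from -0.036 to 0.32 for ALDH1L2, -0.74 to 0.063 for PSPH and -0.46 to 0.040 for SHMT1, and R1 against HEK293T from -0.065 to 0.064 for MTHFD1 and -0.13 to 0.23 for SHMT1 in +Met and -0.40 to 0.099 for SHMT1 in −Met+Hcy. Library totals gave -0.11 for MTHFD1 and -0.17 for ALDH1L2 in the difference between the responses, and 0.35 for MTHFD1 and 0.11 for SHMT2 in R1 against HEK293T in +Met; for MTHFD1 in +Met, edgeR on the libraries of the comparison gave 0.015 and the replicate block 0.0018. With the trend on GC content and length removed, SHMT2 between the media in R1 was 0.084, and 0.080 with the replicate block as well. With that removal and R1 −Met+Hcy replicate 3 left out, SHMT2 was 0.16 and PHGDH 0.031, and SHMT1 was 0.068 in the difference between the responses and 0.11 in R1 against HEK293T in −Met+Hcy. With library totals the median of all genes was -0.38 in the difference between the responses and 0.37 in R1 against HEK293T in +Met. With TMM scaling these medians were -0.06 and 0.02. The cause of the changes of sign was not tested. SHMT2 in R1 against HEK293T in −Met+Hcy was not called by edgeR on the libraries of the comparison (-1.19, adjusted p = 0.113).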
